A study of Mus musculus with 4 samples.

Results

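Genes of zinc buffering, sensing and transport were examined, 5 in all: the metallothionein genes Mt1 and Mt2, the gene of the metal-responsive transcription factor Mtf1, the zinc exporter gene Slc30a1 and the zinc importer gene Slc39a14. They were taken by gene name from the deposited count table, where all 5 names were found once each among 34745 genes. Bone marrow derived macrophages (BMMs) were primary cells of wild-type C57BL/6 mice, all males aged 8 weeks. The cells were held without serum for 12 h and then given RANKL at 100 ng/mL for 24 h, together with dimethyl itaconate (DI) or with DMSO as its vehicle. There were 2 libraries of each group, and every library came from RANKL-treated cells. DI is a membrane-permeable ester used in place of itaconate, a macrophage metabolite. The labels give its dose as 20 mM, while the methods of the study give the same figure in μM. The methods of the study describe its cell experiments in general as independent biological repeats, more of them than the 2 libraries per group here. They do not say whether these libraries came from separate mice or cultures, so the p-values measure the spread between these libraries, which may be technical.

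Metallothioneins are small cysteine-rich proteins that hold zinc and copper in the cytosol and also react with oxidants and electrophiles. When free zinc rises, MTF1 binds metal response elements in promoters and switches on Mt1, Mt2 and Slc30a1, so that zinc is both bound and pumped out. SLC30A1 (ZnT1) is the exporter of the plasma membrane. SLC39A14 (ZIP14) carries zinc, iron and manganese into the cell, and its gene is known to respond to inflammatory cytokines. RANKL turns macrophages into osteoclasts.

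The members of this circuit did not move together. With DI, Slc30a1 rose 1.71-fold, with a 95% interval of 1.5 to 1.96-fold, and passed the test under all 11 alternatives. Mt2 fell to 0.640 of its DMSO level, a call that stood close to the threshold and was lost under several settings. Mt1, which made up most of the metallothionein mRNA, was at 0.941 of its DMSO level, Mtf1 at 0.957 and Slc39a14 at 1.07, and none of these 3 passed the test. Over all 12590 genes tested, 14.8% were called in either direction, 7.14% higher and 7.70% lower with DI (edgeR's quasi-likelihood test, adjusted p under 0.05). Against this background 1 of the 5 members was called higher and 1 lower.

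The promoters of the metallothionein genes and of Slc30a1 are shown first because they carry the sequence through which MTF1 acts. Metal response elements were searched on both strands as TGCACNC and TGCGCNC, which differ at 1 base and so cannot match at the same place and strand. Windows of 300 bases, with 250 before and 50 after the start of each gene, came from RefSeq (GRCm38.p6), and the table used here held one for 4 of the 5 members, all but Slc39a14. The start is that of RefSeq. The start used in these cells was not measured, so places before or after the start hold for RefSeq only. The bases before the start are printed 5′ to 3′, with metal response elements in capitals. For Slc30a1 the printed stretch has 236 bases, since it ends where the gene begins in the deposited table, ahead of the RefSeq start.

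Mt1, chr8:94178839-94179088, plus strand: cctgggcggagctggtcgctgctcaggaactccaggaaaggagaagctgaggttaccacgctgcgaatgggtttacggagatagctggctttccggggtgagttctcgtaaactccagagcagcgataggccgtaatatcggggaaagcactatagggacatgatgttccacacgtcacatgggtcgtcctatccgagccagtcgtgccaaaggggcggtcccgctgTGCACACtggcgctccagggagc
Mt2, chr8:94172368-94172617, plus strand: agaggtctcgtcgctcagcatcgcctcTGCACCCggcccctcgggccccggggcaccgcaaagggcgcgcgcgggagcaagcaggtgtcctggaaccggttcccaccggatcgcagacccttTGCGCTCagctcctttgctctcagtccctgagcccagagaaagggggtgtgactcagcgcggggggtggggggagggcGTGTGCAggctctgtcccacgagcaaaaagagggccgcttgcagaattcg
Slc30a1, chr1:191906531-191906766, plus strand: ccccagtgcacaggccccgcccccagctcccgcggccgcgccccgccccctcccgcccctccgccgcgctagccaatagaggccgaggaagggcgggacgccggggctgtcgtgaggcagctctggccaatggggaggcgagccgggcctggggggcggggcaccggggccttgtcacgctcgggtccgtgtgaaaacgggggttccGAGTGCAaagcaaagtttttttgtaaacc

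Over the whole 300 bases Mt1 held 3 metal response elements, Mt2 held 4 and Slc30a1 held 2. The Mt1 window has 1 of them before the start, and the other 2 stand just after it, at chr8:94179091-94179115 on the plus strand, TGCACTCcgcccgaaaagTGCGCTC. Among all 32851 windows of this length, 25.7% held at least 1 metal response element, 7.11% at least 2, 1.97% at least 3 and 0.517% at least 4. The window of Mtf1 held none, but its RefSeq start lies inside the gene as the deposited table places it, so that the bases before the deposited start were not searched. The core of the antioxidant response element, TGACNNNGC, the sequence of NRF2, was present once in the windows of Mt2 and Slc30a1 and did not overlap their metal response elements, while Mt1 and Mtf1 had no match. It occurred in 12.4% of all windows. Bases outside the 300 of each window were not searched, so a gene without a match here may hold one elsewhere. A match is a string of letters and not a site shown to be bound. Matches to the metal response element are common and binding was not measured, so shares by match number do not describe targets of MTF1. Of the 357 tested genes with 3 or more matches, 7.56% were called higher and 8.68% lower with DI. Of the 5517 with none, 7.25% were called higher and 8.12% lower.

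The 2 metallothionein genes that were expressed lie in 1 cluster with their relatives. On GRCm38, which the labels also call mm10, the deposited table places Mt4, Mt3, Mt2 and Mt1 in this order within 43122 bases of chromosome 8. Mt2 (ENSMUSG00000031762) runs from 94172618 to 94173567 and Mt1 (ENSMUSG00000031765) from 94179089 to 94180325, both on the plus strand and separated by 5521 bases. Both have a coding transcript of 3 exons in GENCODE M21. Over 192 aligned bases these transcripts share 79.2% identity. Mt2 has a further limit. Over 73.5% of its exon bases it overlaps Gm45774 on the opposite strand, a gene that the deposited table does not list. No source says that strand was used in counting, so reads of the 2 genes cannot be told apart. Exon overlaps are given by the exons of GENCODE M21, here and for the other genes.

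Mt1 was the more abundant metallothionein. The DI libraries held 1077 and 1186 counts of it, and the DMSO libraries 1280 and 1085. As CPM, the count relative to the TMM-scaled library size, these were 62.7 and 63.3 with DI against 68.7 and 65.1 CPM with DMSO. Both DI values lay below both DMSO values, as the groups did not overlap for 58.6% of all genes tested. The means were 63.0 ± 0.357 and 66.9 ± 2.53 CPM (SD, n = 2 each), and the fitted difference on the log2 scale was -0.087 (SE 0.060, adjusted p = 0.393 by edgeR's quasi-likelihood test). The 95% interval ran from -0.24 to 0.061 on the log2 scale, or from 15.1% lower to 4.30% higher.

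Mt2 was the scarcer metallothionein. Its counts were 108 and 99 in the DI libraries and 157 and 161 in the DMSO libraries, or 6.29 and 5.28 CPM against 8.43 and 9.67 CPM. The DI libraries were the lower ones and the groups did not overlap. The means were 5.79 ± 0.716 and 9.05 ± 0.875 CPM (SD, n = 2 each), and the fitted difference on the log2 scale was -0.64 (SE 0.15, adjusted p = 0.0434 by edgeR's quasi-likelihood test). Its interval was wide, from -1.02 to -0.27 on the log2 scale. The counts are few. The lowest of them, 99, has an exact 95% Poisson interval of 80.5 to 120.5, and counting error alone amounts to 7.88% to 10.1% of the Mt2 values, against 2.80% to 3.05% for Mt1. Such intervals cover counting error only. The call was lost with the DESeq2 Wald test (adjusted p = 0.0991) and with the replicate number as a block (adjusted p = 0.0861, edgeR). It was also lost without DI replicate 2, without DMSO replicate 1 and without DMSO replicate 2 (adjusted p = 0.143, 0.0838 and 0.177, edgeR), while the log2 fold change stayed between -0.77 and -0.52 whichever library was left out.

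Since a ratio within a library does not depend on scaling, the balance of the pair was also computed from the deposited FPKM values. Mt1 made up 91.1% and 92.5% of the summed FPKM of both genes with DI, and 89.4% and 87.4% with DMSO. Both DI libraries stood above both DMSO libraries, with means of 91.8% ± 0.973 and 88.4% ± 1.38 (SD, n = 2 each). The exact two-sided permutation test gave p = 0.333, the smallest that 2 libraries against 2 allow, so this difference cannot pass a threshold of 0.05. The summed level of both genes was 69.0 and 68.5 CPM with DI and 77.1 and 74.8 CPM with DMSO.

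The other 2 metallothioneins were hardly detected. For Mt3, best known from the brain, the DI libraries held 2 and 4 counts and the DMSO libraries 0 and 2. Mt4, a gene of stratified epithelia, had 0 counts in every library, which allows at most 0.160 to 0.180 CPM when 3 counts are taken as the limit of a count of 0. Neither was tested. The deposited table lists 3 other genes within 100000 bases of the cluster. Of these, Nup93, which encodes a nuclear pore protein, was called lower with DI, at -0.25 on the log2 scale (adjusted p = 0.0300, edgeR). Ogfod1 and Bbs2 were not called, at -0.012 and -0.56. These 3 genes were named after their values had been seen.

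**Figure D1:**
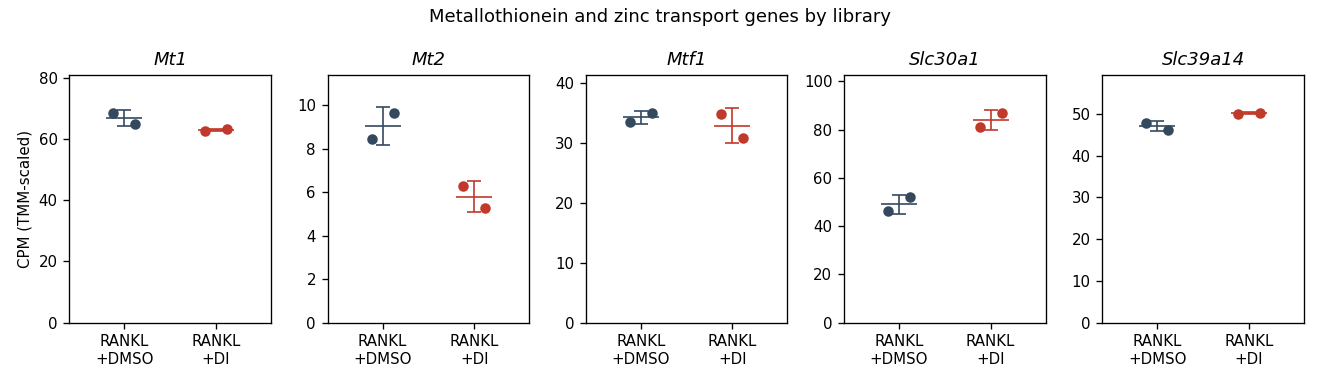
CPM on the TMM scale (y axis, from 0, with a scale of its own in each panel) of the 5 genes in RANKL+DMSO and RANKL+DI libraries. Points are single libraries, horizontal lines are means and bars are SD (n = 2 each), and the wide gap between groups for Slc30a1 (49.1 against 84.2 CPM) contrasts with Mt1, Mtf1 and Slc39a14, whose means differ by little.

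Mtf1 (ENSMUSG00000028890) encodes the zinc finger factor that reads cellular zinc. It lies on chromosome 4 from 124802104 to 124849800 on the plus strand. Its counts were 600 and 578 in the DI libraries and 626 and 585 in the DMSO libraries, or 35.0 and 30.8 CPM against 33.6 and 35.1 CPM. The groups overlapped, with DI replicate 1 above DMSO replicate 1. The fitted log2 difference was -0.064 (SE 0.084, adjusted p = 0.669 by edgeR), with a 95% interval from -0.27 to 0.14. A change of MTF1 protein or of its place in the cell is not measured by mRNA. Over 8.09% of its exons Mtf1 overlaps 1110065P20Rik on the opposite strand, which had 80.3 counts per library on average.

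Slc30a1 (ENSMUSG00000037434) showed the clearest response. It lies on chromosome 1 from 191906767 to 191913247 on the plus strand, and its coding transcript with the most exons has 2 of them and 5244 bases. The DI libraries held 1394 and 1633 counts and the DMSO libraries 862 and 865. These were 81.2 and 87.1 CPM with DI against 46.3 and 51.9 CPM with DMSO. The 2 groups stood far apart relative to the difference within each. The means were 84.2 ± 4.16 and 49.1 ± 4.0 CPM (SD, n = 2 each). The fitted difference on the log2 scale was 0.78 (SE 0.079, adjusted p = 0.00312 by edgeR's quasi-likelihood test), and 2.21% of all tested genes had a smaller p. The interval was 0.58 to 0.97 on the log2 scale. Over the alternatives the adjusted p of Slc30a1 was at most 0.0110, reached in edgeR without DMSO replicate 1. The gene 1700034H15Rik overlaps 8.92% of its exons on the opposite strand, but had only 6.25 counts per library on average.

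Slc39a14 (ENSMUSG00000022094) lies on chromosome 14 from 70303469 to 70351425 on the minus strand. Its counts were 858 and 944 in the DI libraries and 893 and 770 in the DMSO libraries, or 49.99 and 50.3 CPM against 47.9 and 46.2 CPM. Both DI values were the higher ones, by a narrow margin. The fitted log2 difference was 0.091 (SE 0.062, adjusted p = 0.385 by edgeR), with a 95% interval from -0.061 to 0.24. This direction depends on the scaling, since with library size only the value was -0.012. That scaling put the median of all tested genes at -0.10, and relative to it Slc39a14 was at 0.090, as with TMM.

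**Figure D2:**
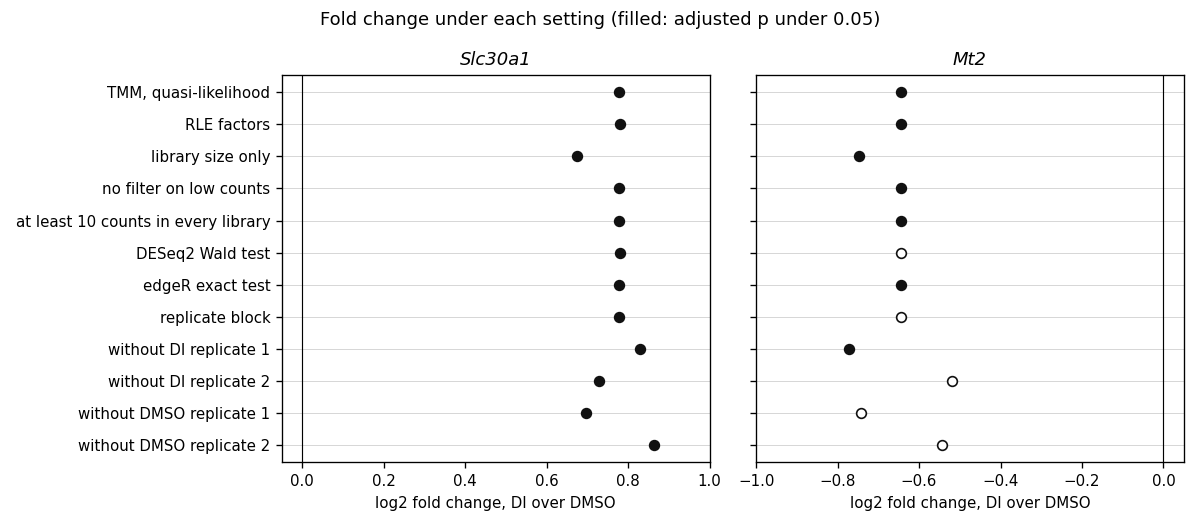
Log2 fold change of DI over DMSO (x axis) for Slc30a1 and Mt2 under each normalization, filter, test and left-out library (y axis). Filled points passed an adjusted p under 0.05. Slc30a1 stayed between 0.67 and 0.86 and passed throughout, whereas Mt2 stayed below 0 but passed in only part of the settings.

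Levels were compared between genes per length, with the deposited FPKM. In the DMSO libraries the order was Mt1 (128 ± 4.90 FPKM), Mt2 (16.9 ± 1.62), Slc30a1 (8.59 ± 0.696), Slc39a14 (3.33 ± 0.0870) and Mtf1 (2.39 ± 0.0734), each FPKM with its SD and n = 2. No 2 neighbours in this order overlapped between their libraries. In the DI libraries Slc30a1 (13.7 ± 0.721 FPKM) stood above Mt2 (10.03 ± 1.21 FPKM, SD, n = 2 each), so these 2 exchanged places, and their libraries again did not overlap. Mt1 was at 112 ± 1.0 FPKM with DI, still first, and Slc39a14 and Mtf1 were last at 3.30 ± 0.0274 and 2.13 ± 0.182 FPKM. The gene lengths behind the FPKM values matter here. That of Slc39a14 was 14637 bases, while its coding transcript with the most exons has 4926 bases. Per kilobase of that transcript Slc39a14 was at 10.2 CPM with DI and 9.56 CPM with DMSO, near Slc30a1 with DMSO (9.36 CPM per kilobase) and Mt2 with DI (11.3). On this measure Mt1 stayed first, at 115 and 122 CPM per kilobase, and Mtf1 stayed last, at 4.35 and 4.55. Slc30a1 stood just below Slc39a14 and below Mt2 with DMSO, and above both with DI.

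The zinc transporters as a family showed scattered changes. They comprise exporters and vesicle loaders of the Slc30 family and importers of the Slc39 family, 24 genes in all, of which 18 passed the filter on low counts. With DI 3 rose, 1 fell and 14 were not called, and the median log2 fold change over the 18 was 0.037, against 0.0012 for all genes tested. The called share of 22.2% compares with 14.8% of all genes. Slc39a4 (ZIP4), the importer that takes up dietary zinc in the gut, rose the most of the 4. Its counts were 249 and 231 in the DI libraries and 140 and 106 in the DMSO libraries, and its level went from 6.94 ± 0.814 to 13.4 ± 1.55 CPM (SD, n = 2 each). Its fitted log2 difference of 0.95 (SE 0.15, adjusted p = 0.0115 by edgeR) exceeded that of Slc30a1 in size but with a wider interval, from 0.58 to 1.31. Slc39a4 kept its call in all 11 alternatives, as Slc30a1 did. Slc39a10 (ZIP10), an importer of the plasma membrane, rose by 0.30 on the log2 scale (adjusted p = 0.0293, edgeR), from 70.5 to 86.7 CPM. Slc39a13 (ZIP13), which releases zinc from vesicles, fell by 0.41 (adjusted p = 0.0192, edgeR), from 32.1 to 24.1 CPM. Over 4.42% of its exons Slc39a13 overlaps Psmc3 on the opposite strand. Psmc3 had 2179 counts per library on average, against 420 to 617 for Slc39a13, so the Slc39a13 count is less certain.

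The call of Slc39a10 was lost in 5 of 11 alternatives (adjusted p from 0.0150 to 0.115, edgeR and DESeq2), and that of Slc39a13 without DI replicate 2 and without DMSO replicate 1. Of the transporters not called, Slc39a1 (ZIP1), Slc30a5 (ZnT5) and Slc39a6 (ZIP6) had the highest FPKM, at 69.7, 33.1 and 20.2 on average. Their log2 fold changes were 0.052, -0.16 and -0.17. With library size only, Slc39a1 stood at -0.051, and Slc30a5 and Slc39a6 were called lower. Slc30a2, Slc30a8 and Slc30a10 had no count in any library.

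**Figure D3:**
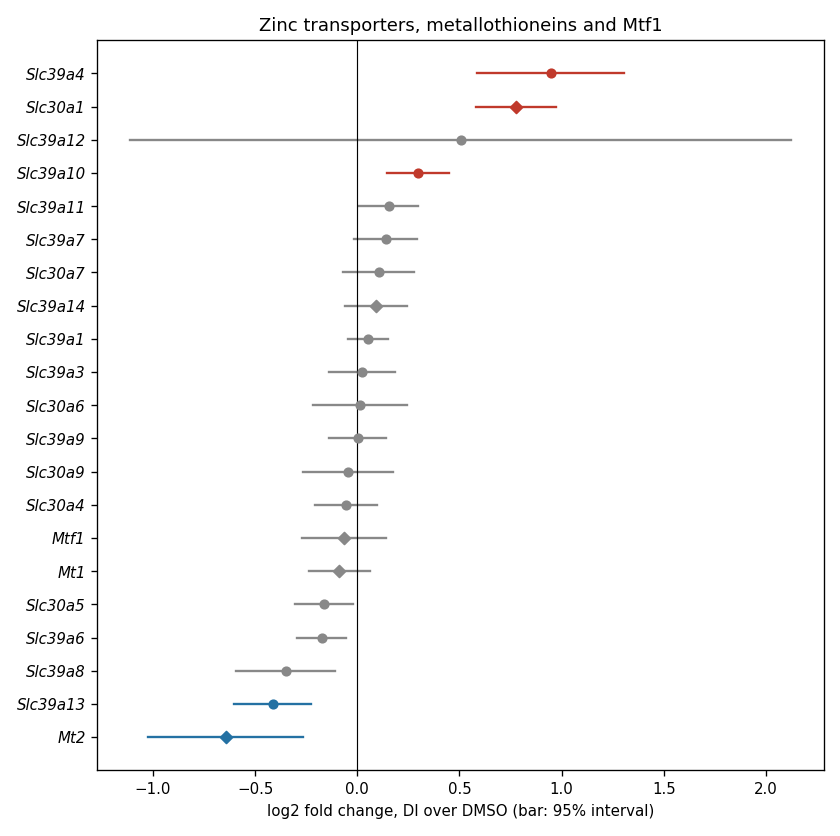
Log2 fold change of DI over DMSO with its 95% interval (x axis) for the 18 tested zinc transporters, Mt1, Mt2 and Mtf1 (y axis), with diamonds for the 5 genes of the report. Red marks genes called higher, blue genes called lower and grey genes not called. Slc39a4 and Slc30a1 stand at the upper end and Mt2 and Slc39a13 at the lower end.

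The KEGG pathway of mineral absorption, as assigned in the deposited annotation, holds Mt1, Mt2 and Slc30a1 with genes of iron, copper, zinc and sodium handling. Of its 43 genes, 24 were tested, 13 rose and 1 fell with DI, with a median log2 fold change of 0.37. The called share was 58.3%, against 14.8% of all genes tested. Mt2 was the 1 gene that fell. The 13 genes that rose included genes of iron, zinc, copper and sodium transport. Slc40a1, which encodes the iron exporter ferroportin, rose by 1.24 on the log2 scale (SE 0.053, adjusted p = 2.77e-04 by edgeR), from 80.2 to 189 CPM. Hmox1, the gene of heme oxygenase, had a log2 fold change of 0.81, and the ferritin genes Fth1 and Ftl1 had 0.70 and 0.55. Slc11a1, a phagosomal metal transporter, had 0.68. Atp1b3, a subunit of the sodium pump, had 0.28. Ftl1 overlaps Gm10252 on the opposite strand over 26.5% of its exons, so its count is less certain.

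**Figure D4:**
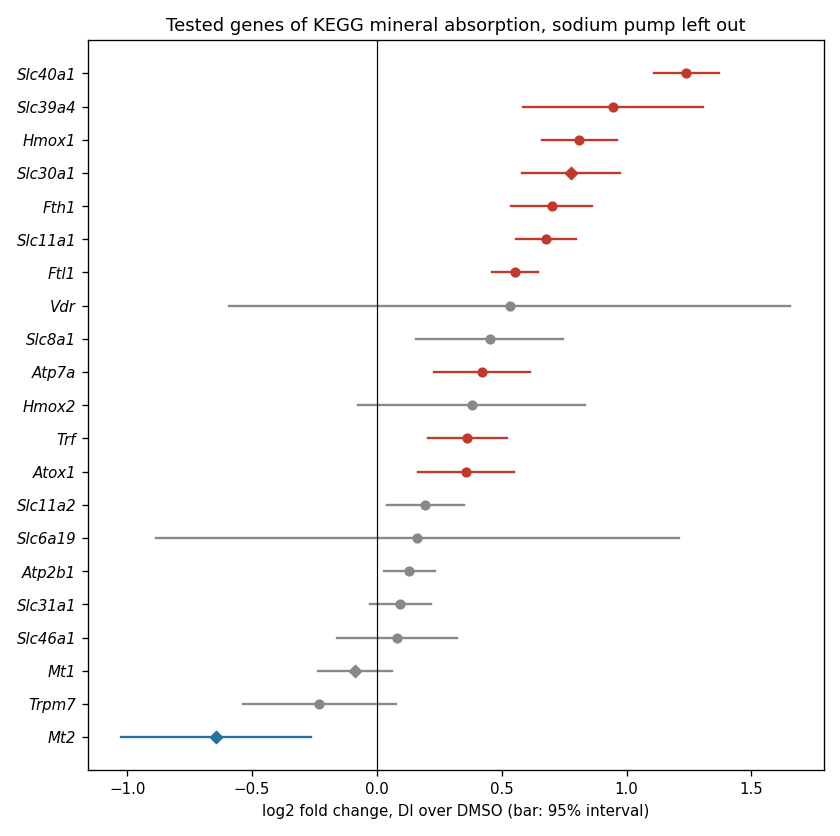
Log2 fold change of DI over DMSO with its 95% interval (x axis) for the tested genes of KEGG mineral absorption other than subunits of the sodium pump (y axis), coloured as in the plot of zinc transporters, with diamonds for Mt1, Mt2 and Slc30a1. All called genes drawn but Mt2 lie to the right of 0, and Mt1 lies just left of it with an interval that includes 0.

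Metallothioneins also bind copper. Of 12 copper handling genes 10 were tested. With DI 3 rose and 0 fell (median log2 fold change 0.15). The called share of 30.0% compares with 14.8% of all genes in either direction and 7.14% called higher. These were Atp7a, the copper-exporting ATPase (0.42), Atox1, the chaperone that hands copper to it (0.36), and Slc31a2, a copper transporter of vesicles (0.29), with adjusted p-values of 0.0198, 0.0328 and 0.0256 (edgeR). Slc31a1, the main copper importer, had a log2 fold change of 0.093 and was not called. The calls of Atox1 and Slc31a2 were weak, kept in 7 and 4 of 11 alternatives, while that of Atp7a was kept in 10. With library size only, with the replicate block, and without DI replicate 2, DMSO replicate 1 or DMSO replicate 2, 1 of the 10 was called.

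Metallothionein genes are known to respond to glucocorticoids and to stress that also induces heat shock genes, and both groups were counted. Of 11 tested glucocorticoid response genes 2 rose and 1 fell with DI (median log2 fold change 0.15), a called share of 27.3% against 14.8% of all genes. Klf9 and Cebpd, both transcription factor genes, had log2 fold changes of 0.48 and 0.45 (adjusted p = 0.0166 and 0.0364, edgeR). Fkbp5, a chaperone gene of the glucocorticoid receptor, had -0.42 (adjusted p = 0.0226, edgeR). Over 15.0% of its exons Cebpd overlaps Spidr on the opposite strand. Spidr had 671 counts per library on average, against 207 to 301 for Cebpd, so the Cebpd count is less certain. The Cebpd call was also lost with library size only, the DESeq2 Wald test, the replicate block and whichever library was left out. With a library left out its log2 fold change was 0.41 to 0.50. At most 1 gene of this list was called without DI replicate 2, without DMSO replicate 1 or without DMSO replicate 2. Of 13 tested heat shock genes, Hspd1, which encodes the mitochondrial chaperonin, was the 1 called, a share of 7.69%, below that of all genes. It fell by 0.35 (adjusted p = 0.00356, edgeR), from 299 to 235 CPM, and the median of the list was -0.12. A second heat shock gene was called lower without DI replicate 1. The inducible genes Hspa1a and Hspa1b had log2 fold changes of -0.51 and -0.69 on few counts and were not called, and they were named after their values had been seen.

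Genes with the pattern most like each member were sought among 11007 others with an average log2 CPM over 1. The measure was the root mean square difference of centred log2 CPM over the 4 libraries, which share their condition. For Slc30a1 they were Ier5l, Ext1 and Ly9 (differences of 0.032, 0.036 and 0.040), and for Mt2 they were Cttn, Phf11d and Ifi204 (0.026, 0.036 and 0.039). Ly9, a receptor gene of the SLAM family, went from 353 to 600 CPM with DI, and Ifi204, an interferon-inducible gene, from 103 to 64.3 CPM. The flat profile of Mt1 was nearest to Elmsan1, Pdhx, Ttc13, Slc22a5 and Nt5m, that of Slc39a14 to Abcc5, Snapc2 and Dennd1a, and that of Mtf1 to Irg1, Dennd6a and Get4. Irg1 encodes the enzyme that makes itaconate, and it was at 22.4 CPM with DI and 23.4 CPM with DMSO. Its log2 fold change was -0.059 and was not called (adjusted p = 0.728, edgeR). By qPCR the study reports IRG1 significantly reduced by DI under RANKL, in BMMs of young and of aged mice. The study does not state the hours of RANKL for that qPCR.

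The libraries held 16085692 to 19403480 counts, and libraries of 1 group were further apart than sampling noise. Macrophage markers were abundant in all libraries, with a summed level of 28639 and 29434 CPM with DI against 23282 and 22438 CPM with DMSO. Most of this sum was Lyz2, the gene of lysozyme. Of the 9 tested entries of macrophage markers, 5 were called higher and 2 lower with DI, against 7.14% and 7.70% of all genes. Those called lower were Fcgr1 and Cd14, at -0.60 and -0.51 on the log2 scale. Itgam was entered under ENSMUSG00000030786 (0.57, called) and under ENSMUSG00000108596 (0.16, not called). Of the 8 tested osteoclast markers 5 were called lower and 2 higher with DI, against 7.70% and 7.14% of all genes, and Calcr, a marker of mature osteoclasts, was at 0. Markers of B cells, T and NK cells, erythroid cells, and mast cells and basophils summed to under 1 CPM in every library. Neutrophil markers summed to 7.89 to 9.90 CPM, with Ly6g at 0 throughout, and stromal markers to 41.4 to 51.3 CPM, with Lepr at 0. The part of the shift in macrophage and osteoclast markers in the changes of Slc30a1 and Mt2 was not tested. In bulk RNA, fewer cells of a type and less RNA per cell cannot be told apart.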

How the data were processed

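RNA of 4 libraries, 2 with RANKL and DI and 2 with RANKL and DMSO, was grouped by its labels. The values deposited by the authors were unnormalised read counts for each gene and FPKM values made from those counts and a gene length. The aligner and the counting program are not given in the sources used here, and the build is GRCm38. A second deposited table repeats both and adds KEGG terms, of which mineral absorption was used. All 34267 identifiers shared with GENCODE M21 lay on the same chromosome, and 80.8% also had the same start and end. Mt1 and Mt2 did not have the same start and end. Transcripts and exon overlaps were those of GENCODE M21, which may differ from the gene models behind the counts.

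The count analysis used edgeR 4.0.16 in R 4.3.3. Low counts were removed with filterByExpr, libraries were scaled by TMM, and DI was set against DMSO in a quasi-likelihood F test without covariates. P-values were adjusted by Benjamini-Hochberg for 12590 genes. Standard errors came from the fold change and the F statistic, and 95% intervals from the moderated degrees of freedom. CPM is per TMM-scaled library size. The steps were tested on simulated data. Alternatives were RLE factors, library size only, no filter, at least 10 counts in every library, DESeq2 1.42.0, edgeR's exact test, a replicate block and each library left out. Transcripts were compared with BLAST+ 2.17.0.

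The depth was 16085692 to 19403480 counts per library, so that 3 counts equal 0.160 to 0.180 CPM. The members and lists were chosen with earlier results of these data known. The text names the members, Mt3 and Mt4, the called genes of each list (up to 8 by p), the 3 most abundant zinc transporters not called, and the genes most like each member. A gene that this rule names is not reported here.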

Additional observations from a re-analysis of the deposited data

How the results depend on the processing

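Slc30a1 kept its direction and its call in all 11 alternatives, with log2 fold changes from 0.67 to 0.78, and from 0.70 to 0.86 with a library left out. Mt2 stayed lower in all 11 but passed in 6. Its value was -0.64 with the DESeq2 Wald test and -0.65 with the replicate block, where it did not pass, and -0.77 to -0.52 with a library left out. Mt1 stayed below 0 in all 11, from -0.12 to -0.049 with a library left out, and was never called. Mtf1 ranged from -0.15 to 0.028 with a library left out, positive without DI replicate 2, and Slc39a14 from 0.067 to 0.12, with -0.012 under library size only. That scaling also called 548 genes higher and 1932 lower, in place of 899 and 969, and put Slc39a1 at -0.051. The difference in the Mt1 share was 3.43 percentage points, 2.46 to 4.41 with a library left out.

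With a library left out, 1087 to 1394 of all genes were called in place of 1868, and 2 to 3 zinc transporters in place of 4. The fewest genes were called without DMSO replicate 2 (1087) and DMSO replicate 1 (1120), and the fewest zinc transporters (2) without DMSO replicate 1. Copper handling genes numbered 1 to 2 in place of 3, mineral absorption genes 10 to 15 in place of 14, heat shock genes 1 to 2 in place of 1 and glucocorticoid response genes 0 to 2 in place of 3. With library size only, 1 copper handling gene and 2 heat shock genes were called. With the replicate block, 1 copper handling gene and 1389 genes in all were called. The replicate numbers were not taken as pairs, since the study names no pairing. Deviations of same-numbered libraries had a correlation of -0.063 over 12590 genes. With 2 libraries per group this value cannot show whether they were paired. Other causes of these differences were not tested. The residual spread rests on 2 libraries per group, and the depth of Mt2 limits its precision.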
